A study of Mus musculus with 28 samples.

Results

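Trp53, which encodes the transcription factor p53, and 9 genes that p53 is known to switch on directly (Mdm2, Cdkn1a, Ccng1, Bax, Bbc3, Aen, Sesn2, Phlda3 and Trp53inp1) were examined in induced mouse colon organoids. The 10 genes were taken by name from the 13519 genes of the deposited count table, and all 10 were present, with at least 173 counts in each of the 28 samples. Gene counts do not separate the mutant from the wild-type Trp53 allele, so each Trp53 value is the sum of both.

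Organoids, 3-dimensional cultures of colon epithelium, came from C57BL/6N mice that all carried the Apc flox/flox alleles and the Villin::CreERT2 transgene, a tamoxifen-activated Cre recombinase driven by the promoter of an intestinal epithelial gene. AC organoids carried nothing further, PAC organoids also Trp53 LSL-R172H/+, BAC organoids also Braf floxV600E/+, and BPAC organoids both. Cultures received 4-hydroxytamoxifen (4-HT, 3.5 µM) for 24 hours or the ethanol vehicle (EtOH), and RNA was isolated 3 days later. EtOH organoids of the same genotype therefore carried the same alleles before recombination, in which an LSL (lox-STOP-lox) cassette keeps the R172H allele silent. AC came from 1 donor mouse and the other genotypes from 2 donors each, with 2 cultures (duplicates 1 and 2) per donor and treatment, giving 14 cultures with both treatments. The Trp53 allele was thus present in 4 donors (8 cultures) and absent from 3 donors (6 cultures), and duplicates of a donor share an animal.

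The p53 protein is kept low in unstressed cells because MDM2, the product of one of its own targets, marks it for degradation. Under DNA damage or oncogenic stress p53 accumulates and switches on genes that stop the cell cycle, repair damage or start apoptosis. Loss of APC followed by loss or mutation of p53 is the classical order of events in colorectal cancer, and R172H in mice corresponds to a frequent human hotspot mutation in the DNA-binding domain.

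Library totals ran from 20577276 to 40068718 counts. CPM are counts scaled to the library total with a TMM normalisation factor for each sample. In the 4-HT samples of duplicate 1 from both PAC donors, Xist (25.2 and 22.0 CPM) and 4 Y-linked genes (summed 55.0 and 53.5 CPM) were present together. Each of the other 26 samples held only Xist or only the Y-linked genes above 1 CPM. These 2 libraries were also closer to each other than any of the other 37 pairs of samples within a group. Their mean squared difference was 2.38 times the sampling noise, against 8.53 to 287 times for the other pairs, so they do not clearly represent 2 separate donors, and the calls in PAC and for the Trp53 allele are also given without the duplicate 1 cultures of PAC. The 7 epithelial markers Epcam, Cdh1, Krt8, Krt18, Krt20, Vil1 and Cdx2 summed to at least 11357 CPM in every sample. Of 10 fibroblast, endothelial and immune markers only Pecam1, Cd3e and Cd68 were listed, with a summed level of at most 6.50 CPM.

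Trp53 (ENSMUSG00000059552) lies on chromosome 11 (GRCm38, chr11:69580359-69591873, plus strand). The codon changed in the R172H allele lies in exon 5 of its transcript ENSMUST00000108658.9 at chr11:69588511-69588513 and encodes arginine in the reference, in a protein of 390 residues. The reference sequence around it is shown because this codon defines the allele, with the codon in capitals.
Trp53 codon of R172H, chr11:69588499-69588525, plus strand: gaggtcgtgagaCGCtgcccccaccat

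p53 binds DNA as a tetramer, each pair of subunits contacting a half-site of 10 bases. The RefSeq promoter windows (GRCm38.p6, 250 bases before to 50 after each start), which matched 9 of the 10 genes, were searched on both strands for the p53 half-site consensus, which reads the same on both. It was present in the windows of 6 of those 9 genes, against 9.55% of all 27025 genes with a window. Apart from Trp53 these genes were picked as known direct targets of p53, so the comparison is not a test of enrichment. Trp53inp1 was not searched. The matches are shown in capitals with 8 bases on each side, to show where the known binding letters of p53 stand next to the starts of the genes described. They are descriptions of the reference sequence and not measured binding sites.
Trp53, chr11:69580276-69580301, plus strand: ccacggaaGGACTTGCCCttacttgt
Mdm2, chr10:117710927-117710952, minus strand: tcggatagGAACTTGCCTagcgacca
Cdkn1a, chr17:29090898-29090923, plus strand: ctgggtggGGACTAGCTTtctggcct
Cdkn1a, chr17:29090920-29090945, plus strand: gccttcagGAACATGTCTtgacatgt
Ccng1, chr11:40755454-40755479, minus strand: acctgcccGGGCAAGCCTtggcactg
Bax, chr7:45467082-45467107, minus strand: catatcccAGGCAAGCTTtgaacttg
Aen, chr7:78895929-78895954, plus strand: ccgaagccGGGCTTGTCCgggcaagg
The windows of Bbc3, Sesn2 and Phlda3 held no such run of letters. Bbc3 lies on chr7:16308393-16318205 (plus strand), Sesn2 on chr4:132492032-132510501 (minus strand), Phlda3 on chr1:135766119-135769136 (plus strand) and Trp53inp1 on chr4:11156431-11174379 (plus strand). Exons of Cdkn1a overlap the gene AC167363.2 and those of Bax overlap Gm45808. Since the counting is not stated to use strand, reads of such overlaps cannot be told apart.

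Per kilobase of exon, the 10 genes differed widely in level. The mean over the 14 EtOH samples was highest for Cdkn1a (147 CPM per kb), which encodes the cyclin-dependent kinase inhibitor p21, followed by Bax (83.8 CPM per kb) and Ccng1 (75.4 CPM per kb). Trp53 itself stood at 19.6 CPM per kb, and the lowest were Trp53inp1 (4.61 CPM per kb) and Aen (4.42 CPM per kb). These values, like all CPM values of the results, are normalised with TMM scaling factors. All further CPM values are per gene, not per length.

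The first comparison asked whether the still silent Trp53 LSL-R172H allele changed the level of Trp53 or its targets in EtOH organoids. Trp53 was lower in every sample with the allele. Without it, the AC cultures had 108 and 115 CPM. BAC donor 1 had 122 and 105 CPM and BAC donor 2 had 115 and 97.9 CPM in duplicates 1 and 2. With the allele, PAC donor 1 had 57.2 and 56.5 CPM and PAC donor 2 had 51.9 and 66.0 CPM. BPAC donor 1 had 51.4 and 52.9 CPM and BPAC donor 2 had 60.1 and 52.6 CPM. The groups did not overlap: the highest sample with the allele (66.0 CPM) lay below the lowest sample without it (97.9 CPM), which was so for 0.0296% of all genes. In bulk RNA, fewer cells that express a gene and less RNA per cell cannot be told apart.

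The mean was 56.1 ± 5.06 CPM (SD, n = 8) with the allele and 110 ± 8.44 CPM (SD, n = 6) without it. In the fit across all genes (edgeR quasi-likelihood test, 8 groups), the level with the allele was lower by a log2 difference of -0.98 ± 0.081 (SE, adjusted p = 5.79e-08). The difference was -0.95 between PAC and AC (edgeR adjusted p = 0.000444) and -1.02 between BPAC and BAC (edgeR adjusted p = 5.85e-06), where 0.0444% of all genes passed in each. The first of these calls was lost without the duplicate 1 cultures of PAC (-0.87, edgeR adjusted p = 0.0269), with counts summed per donor (-0.96, edgeR adjusted p = 0.0356), with only the samples compared (edgeR adjusted p = 0.0103), in duplicate 1 alone (edgeR adjusted p = 0.0541), in duplicate 2 alone (edgeR adjusted p = 0.947), and without either AC culture or either PAC donor (edgeR adjusted p from 0.0142 to 0.159). The second was lost in duplicate 2 alone (-0.94, edgeR adjusted p = 0.166). Over donors, the units that carry the genotype, the log2 level averaged 5.81 (range 5.71 to 5.87) in the 4 donors with the allele and 6.78 (range 6.73 to 6.82) in the 3 donors without it. The two-sided exact permutation test over the 35 splits of the 7 donors gave p = 0.0286, the smallest it can give.

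**Figure D1:**
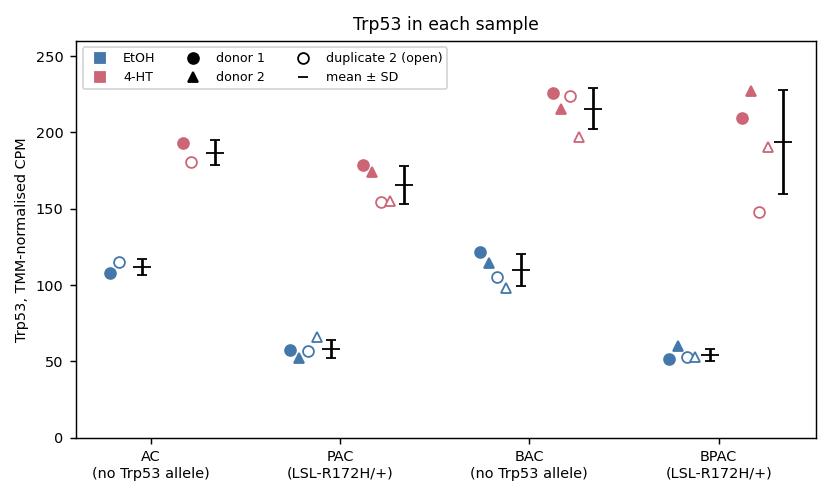
Trp53 level (vertical axis, TMM-normalised CPM from 0) in each of the 28 samples by genotype, with EtOH in blue, 4-HT in red, circles for donor 1, triangles for donor 2, filled points for duplicate 1 and open points for duplicate 2. Black bars give the mean ± SD of the samples of a group. The EtOH samples with the LSL allele sit between 51.4 and 66.0 CPM, below those without it (97.9 to 122 CPM), and the 4-HT samples of all genotypes sit between 148 and 227 CPM.

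Trp53 was the only one of the 10 genes that passed the threshold in this comparison (edgeR adjusted p under 0.01), where 0.0592% of all genes passed (8 of 13519; 0.0148% were lower). Of the 9 targets, 8 had a lower fitted level with the allele, and the median over the 10 genes was -0.21 on the log2 scale, against 0.01 over all genes tested. Between PAC and AC, the latter from 1 donor, the median was -0.37 with 9 of the 10 genes lower, and 5 genes had an unadjusted p under 0.05, as had 4.7% of all genes. Between BPAC and BAC it was -0.08 with 7 of the 10 lower, and 1 gene (Trp53) had such a p, as had 4.99% of all genes. In the pooled comparison an unadjusted p under 0.05 was reached by 5 of the 10 genes, Trp53 included, and by 4.96% of all genes. Of the others, Phlda3, which blocks AKT at the membrane, differed by -0.63 ± 0.29 (SE, log2) and the pore-forming apoptosis gene Bax by -0.32 ± 0.13. Aen, an exonuclease that degrades DNA in dying cells, differed by -0.21 ± 0.088 and Mdm2, the ubiquitin ligase for p53, by -0.18 ± 0.073. Ccng1, the cyclin G1 gene of the MDM2 feedback loop, was not among them (-0.42 ± 0.21). Cdkn1a was the exception in sign, with a log2 difference of 0.26 ± 0.17. Without the duplicate 1 cultures of PAC the difference of Trp53 was -0.94 (edgeR adjusted p = 6.07e-06). In duplicate 2 alone Trp53 kept its size (-0.93) but not its call (edgeR adjusted p = 0.0272). Without donor 2 of BPAC, 3 genes passed, namely Trp53 (-1.01), Bax (-0.56, edgeR adjusted p = 0.00683) and Phlda3 (-1.29, edgeR adjusted p = 0.00934), where 0.0962% of all genes passed.

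The dependence on that donor was visible in the samples. Phlda3 in EtOH was 9.26 and 9.94 CPM in BPAC donor 1 but 36.1 and 40.0 CPM in BPAC donor 2. In PAC it was 13.4 and 18.4 CPM in donor 1 and 8.50 and 23.2 CPM in donor 2. Without the allele it was 23.1 and 45.3 CPM in AC, and 20.9 to 34.7 CPM in BAC. Thus 5 of the 8 samples with the allele lay below all 6 without it, and both samples of BPAC donor 2 lay within their range. Bax behaved alike, with 105 and 70.6 CPM in BPAC donor 1, 160 and 151 CPM in BPAC donor 2, 101 to 135 CPM in PAC and 138 to 164 CPM in the samples without the allele. Cdkn1a ran the opposite way within BPAC, with 699.8 and 816 CPM in donor 1 and 449 and 486 CPM in donor 2, and it was also high in duplicate 1 of PAC donor 2 (772 CPM).

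The second comparison followed each culture from EtOH to 4-HT, that is, through deletion of Apc with or without switching on the Trp53 and Braf alleles. Trp53 rose in all 4 genotypes. Its 4-HT level was 193 and 181 CPM in AC, 178 and 155 CPM in PAC donor 1, 174 and 155 CPM in PAC donor 2. In BAC it was 226 and 224 CPM in donor 1 and 215 and 197 CPM in donor 2. In BPAC it was 209.6 and 148 CPM in donor 1 and 227 and 190.1 CPM in donor 2. Within cultures, the log2 change was positive in 14 of 14, from 0.65 to 2.03. A rise in all 14 cultures was seen for 18.5% of all genes. The fitted change was 0.74 ± 0.15 for AC (SE, log2, edgeR adjusted p = 0.00168) and 0.97 ± 0.10 for BAC (edgeR adjusted p = 4.52e-08). It was 1.51 ± 0.11 for PAC (edgeR adjusted p = 3.48e-09) and 1.84 ± 0.11 for BPAC (edgeR adjusted p = 6.84e-12).

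Of the targets that act on p53 itself, Mdm2 passed in BAC and BPAC, and with library size alone also in PAC. Its level went from 66.3 ± 4.64 to 93.8 ± 6.21 CPM in BAC and from 62.2 ± 5.06 to 90.3 ± 3.54 CPM in BPAC (SD, n = 4 each). The fitted change was 0.50 ± 0.092 in BAC (SE, log2, edgeR adjusted p = 7.48e-05) and 0.54 ± 0.092 in BPAC (edgeR adjusted p = 2.68e-05), and the 4-HT and EtOH samples did not overlap in either, as for 25.7% and 22.5% of all genes. In AC and PAC it was 0.23 ± 0.13 and 0.17 ± 0.092, neither past the threshold. The log2 change of Ccng1 was 0.25 ± 0.37 for AC, 0.11 ± 0.26 for PAC, 0.26 ± 0.26 for BAC and 0.56 ± 0.26 for BPAC. None of these passed, but with the culture as a block the change in BPAC did (0.62, edgeR adjusted p = 0.00023).

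Among the cell cycle and growth genes, Cdkn1a went the opposite way to Trp53. It was lower with 4-HT in every culture (14 of 14), with log2 changes from -1.56 to -0.35, and 19.5% of all genes were lower in all 14. AC fell from 404 and 369.8 CPM to 258 and 246 CPM, and in BAC the 4 samples went from 536 ± 83.6 to 358 ± 19.5 CPM (SD). PAC went from 485 ± 194 to 241 ± 22.9 CPM and BPAC from 613 ± 175 to 336 ± 91.3 CPM (SD, n = 4 each), so that the EtOH samples were more spread than the 4-HT samples. The fitted change passed in PAC (-1.01 ± 0.21, SE, log2, edgeR adjusted p = 0.000686) and in BPAC (-0.87 ± 0.21, edgeR adjusted p = 0.00113), but not in AC (-0.62 ± 0.30, edgeR adjusted p = 0.157) or BAC (-0.58 ± 0.21, edgeR adjusted p = 0.0216). The call in BPAC was lost with its samples alone (-0.84, edgeR adjusted p = 0.0124), in duplicate 2 alone (-0.78, edgeR adjusted p = 0.045), without duplicate 1 of donor 1 (-0.71, edgeR adjusted p = 0.0192) and without donor 1 (-0.65, edgeR adjusted p = 0.0365). With the culture as a block the change in BAC passed as well (-0.57, edgeR adjusted p = 0.00156). When the duplicate 1 cultures of PAC were left out, the call in PAC was lost (-0.76, edgeR adjusted p = 0.0699) and BAC passed (-0.58, edgeR adjusted p = 0.00776), and with the block added to that setting AC passed too (-0.62, edgeR adjusted p = 0.00686). Sesn2, a stress-induced inhibitor of mTORC1, rose by 0.41 ± 0.11 in BAC (edgeR adjusted p = 0.00363) and 0.39 ± 0.11 in BPAC (edgeR adjusted p = 0.00461), with 0.37 ± 0.16 in AC and 0.14 ± 0.11 in PAC. Both calls were lost with only the samples compared (edgeR adjusted p = 0.0103 and 0.0199), in duplicate 2 alone (edgeR adjusted p = 0.0341 and 0.225), without either BAC donor or either culture of BAC donor 1 (for BAC), and without duplicate 1 of BPAC donor 1, either culture of BPAC donor 2, or that donor (for BPAC).

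Phlda3 rose in 14 of 14 cultures. Its 4-HT level was 51.0 and 87.0 CPM in AC, 41.3 to 48.0 CPM in PAC, 53.8 to 70.7 CPM in BAC and 44.1 to 90.9 CPM in BPAC. The fitted log2 change passed in PAC (1.44 ± 0.37, SE, edgeR adjusted p = 0.00393), BAC (1.25 ± 0.37, edgeR adjusted p = 0.0058) and BPAC (1.42 ± 0.37, edgeR adjusted p = 0.0021), and was 1.01 ± 0.51 in AC (edgeR adjusted p = 0.184). With the counts of a donor's cultures summed, none of the 3 calls held (edgeR adjusted p = 0.0368, 0.0389 and 0.0229). The call in PAC was also lost without its duplicate 1 cultures (1.11, edgeR adjusted p = 0.198). With 1 culture or donor left out, the call of Phlda3 held in 15 (PAC), 13 (BAC) and 18 (BPAC) of 20 fits. Within BPAC the change by culture ran from 0.62 to 2.65, lowest in both cultures of donor 2 and highest in donor 1, whose EtOH level was low.

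Among the apoptosis genes, Aen changed most evenly. It went from 26.7 and 31.2 CPM to 43.5 and 51.6 CPM in AC, from 22.6 ± 2.52 to 41.1 ± 3.45 CPM in PAC, from 27.0 ± 2.27 to 58.0 ± 4.32 CPM in BAC and from 25.8 ± 2.94 to 54.6 ± 8.17 CPM in BPAC (SD, n = 4 each). No 4-HT sample of a genotype overlapped its EtOH samples, which was so for 29.4%, 16.0%, 25.7% and 22.5% of all genes (AC, PAC, BAC, BPAC). Aen passed in all 4 genotypes, with log2 changes of 0.72 ± 0.16 (SE) for AC, where the edgeR adjusted p was highest (0.00321), and of 0.86 ± 0.11 (PAC), 1.11 ± 0.11 (BAC) and 1.08 ± 0.11 (BPAC). With counts summed per donor the call in AC was lost (0.68, edgeR adjusted p = 0.0198), and without the duplicate 1 cultures of PAC that in PAC (0.71, edgeR adjusted p = 0.0212). Bax passed in BAC (0.54 ± 0.16, edgeR adjusted p = 0.00667) and BPAC (0.66 ± 0.16, edgeR adjusted p = 0.00115), but in neither with counts summed per donor (edgeR adjusted p = 0.0488 and 0.0202), and not in BAC without the duplicate 1 cultures of PAC (edgeR adjusted p = 0.0107). In PAC its change of 0.54 ± 0.16 just missed (edgeR adjusted p = 0.0107) and passed with the culture as a block (0.55, edgeR adjusted p = 0.000946), while without those cultures it was 0.43 (edgeR adjusted p = 0.284). In AC it was 0.30 ± 0.23. With 1 culture or donor left out, the call of Bax held in 12 of 20 fits in BAC and in 18 of 20 in BPAC. Its change then ranged from 0.48 to 0.59 in BAC and from 0.41 to 1.03 in BPAC.

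Bbc3, which encodes the BH3-only protein PUMA, and Trp53inp1, a cofactor of p53 in apoptosis and autophagy, did not pass in any genotype. Bbc3 ranged from 11.6 to 25.2 CPM in EtOH and from 16.5 to 24.6 CPM in 4-HT, with fitted changes between 0.11 and 0.24. The change of Trp53inp1 was 0.36 ± 0.45 (AC), -0.08 ± 0.32 (PAC), -0.03 ± 0.32 (BAC) and -0.14 ± 0.32 (BPAC). Without TMM scaling the last 3 were positive (0.14, 0.14 and 0.09).

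**Figure D2:**
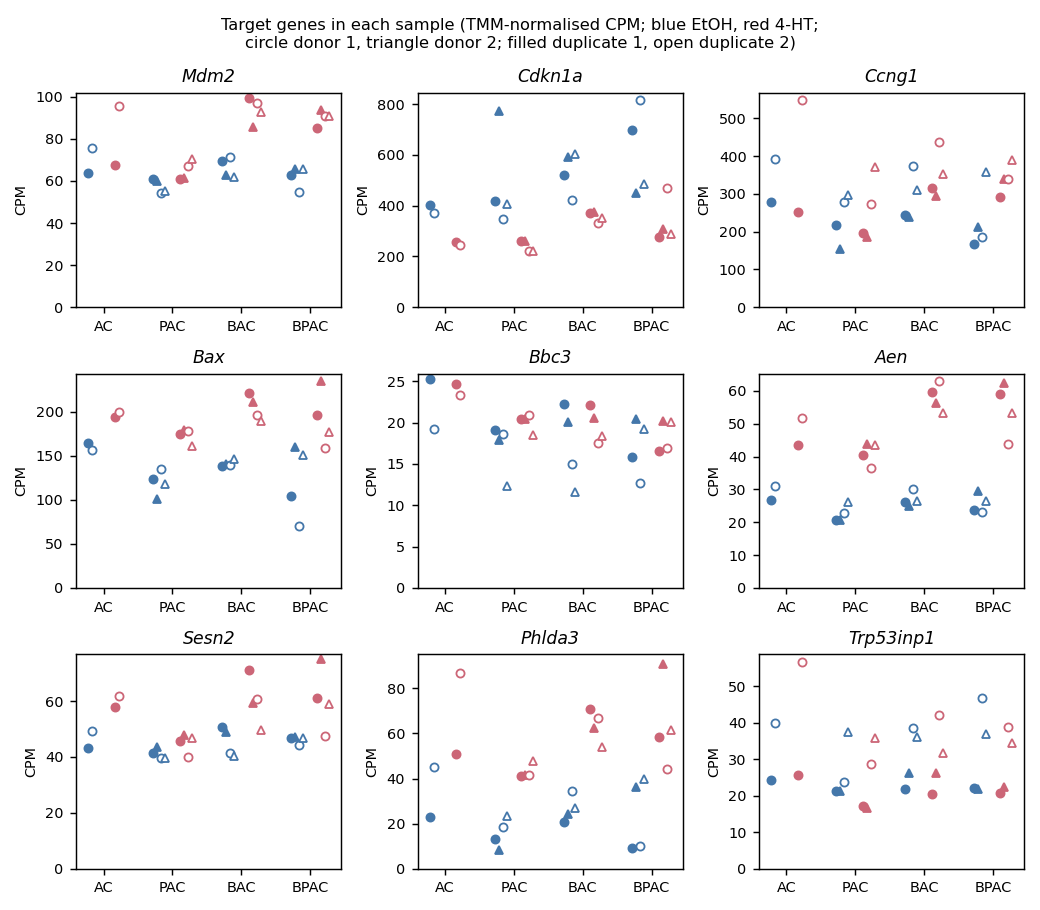
Levels of the 9 target genes (vertical axes, TMM-normalised CPM from 0, a scale for each gene) in each of the 28 samples by genotype, with EtOH in blue, 4-HT in red, circles for donor 1, triangles for donor 2, filled points for duplicate 1 and open points for duplicate 2. Aen and Phlda3 stand higher with 4-HT in each genotype. Cdkn1a stands lower, but its BPAC points overlap (4-HT up to 471 CPM, EtOH from 449 CPM). The open points of Trp53inp1 stand above the filled ones of the same donor.

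Counted together, the 4-HT change passed upward for 2 of the 10 genes in AC (Trp53 and Aen), where 7.25% of all genes passed (3.0% upward). In PAC 3 rose (Trp53, Aen and Phlda3) and 1 fell (Cdkn1a), where 23.4% of all genes passed (11.2% upward, 12.2% downward). In BAC 6 rose (Trp53, Aen, Bax, Mdm2, Phlda3 and Sesn2), where 41.9% of all genes passed (20.3% upward), and in BPAC these 6 genes rose and Cdkn1a fell, where 45.0% of all genes passed (22.0% upward, 23.0% downward). The median change of the 10 genes, in the order AC, PAC, BAC, BPAC, was 0.33, 0.20, 0.45 and 0.55, against 0.01, -0.03, -0.04 and -0.04 over all genes tested. The calls among the 10 genes are to be read against these shares.

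These counts depended on single cultures. Without either AC culture none of the 10 genes passed in AC, where 0.0666% and 0.178% of all genes did. Without duplicate 1 of PAC donor 2, 2 genes passed in PAC (Trp53 and Aen), where 10.5% of all genes did. Without both duplicate 1 cultures of PAC, 1 did (Trp53, 1.34, edgeR adjusted p = 0.000269), where 0.355% of all genes passed. Without duplicate 1 or duplicate 2 of BAC donor 1, or without either BAC donor, 3 genes passed in BAC (Trp53, Mdm2 and Aen in each case), where 33.9%, 34.1%, 22.8% and 20% of all genes did. Without duplicate 1 of BPAC donor 1, 3 genes passed in BPAC (Trp53, Mdm2 and Aen), where 35.1% of all genes did, and without that donor 4 did (these and Sesn2), where 30.2% of all genes did. The TMM factors were 0.885 to 0.970 in EtOH and 1.04 to 1.10 in 4-HT samples. With library size alone, the median change of all genes shifted by 0.22, 0.22, 0.17 and 0.21 (same order). The share of upward calls among all genes then went from 41.4% to 83.3% (AC), 47.7% to 82.1% (PAC), 48.6% to 65.3% (BAC) and 48.9% to 68% (BPAC). Under that scaling the upward calls among the 10 genes were 3, 5, 6 and 6, against 1511, 3388, 3881 and 4331 of all 13519 genes. Sesn2 was then called in AC (0.59, edgeR adjusted p = 0.00944), Mdm2 (0.39, edgeR adjusted p = 0.00251) and Bax (0.76, edgeR adjusted p = 0.000793) in PAC, and Cdkn1a still fell in PAC and BPAC.

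**Figure D3:**
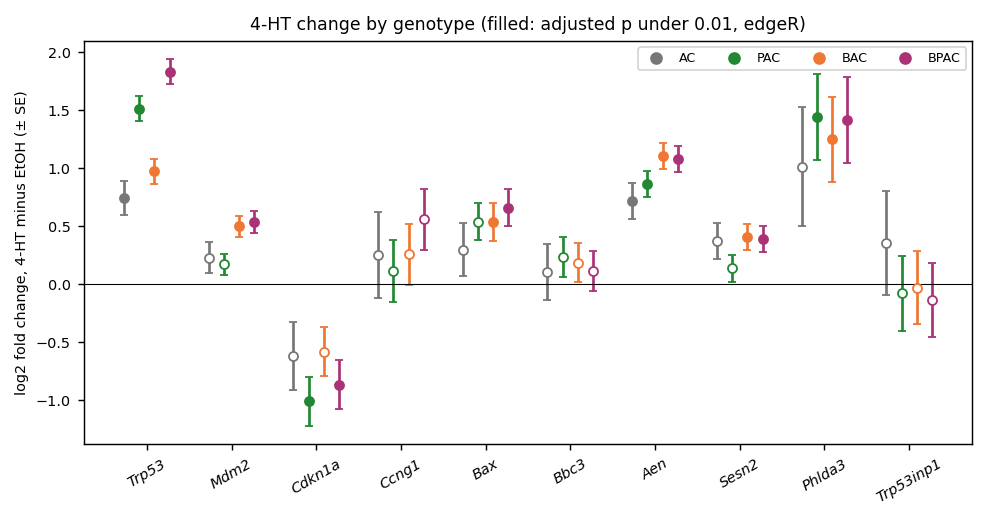
Fitted log2 fold change from EtOH to 4-HT (vertical axis, ± SE) for each of the 10 genes in AC (grey), PAC (green), BAC (orange) and BPAC (magenta), with filled points where the edgeR adjusted p is under 0.01. The change of Trp53 is larger in PAC (1.51) and BPAC (1.84) than in AC (0.74) and BAC (0.97), whereas Mdm2 is filled only in BAC and BPAC, and Bbc3 and Trp53inp1 nowhere.

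The third comparison asked whether the 4-HT change differed with the Trp53 allele. The change of Trp53 was larger in each of the 8 cultures with the allele (1.23 to 2.03 on the log2 scale) than in each of the 6 without it (0.65 to 1.09), as for 0.0296% of all genes. The difference between the mean of PAC and BPAC and the mean of AC and BAC was 0.82 ± 0.12 (SE, log2, edgeR adjusted p = 0.00367). Trp53 was the only one of the 10 genes to pass, where 0.0148% of all genes passed (2 of 13519). Over donors the mean change was 1.67 with the allele (range 1.49 to 1.88, n = 4) and 0.90 without it (range 0.74 to 0.99, n = 3), and the two-sided exact permutation test gave p = 0.0286, the smallest possible with 7 donors.

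The size of this difference stayed between 0.66 and 0.96 in all alternative fits across genes, but the call did not hold in each. It was lost when the counts of a donor's 2 cultures were summed (edgeR adjusted p = 0.0668), in duplicate 1 alone (0.96, edgeR adjusted p = 0.0427), in duplicate 2 alone (0.66, edgeR adjusted p = 1.00), and without the duplicate 1 cultures of PAC (0.73, edgeR adjusted p = 0.098). Leaving out 1 culture or 1 donor at a time gave 0.77 to 0.87, with a call in 8 of 20 cases and edgeR adjusted p up to 0.205, the latter without duplicate 2 of AC. The calls lost were those without either culture of AC, duplicate 1 of PAC donor 1, duplicate 1 of either BAC donor, duplicate 1 of BPAC donor 1, duplicate 2 of BPAC donor 2, either PAC donor, either BAC donor, or BPAC donor 2. In the donor test the exact p was 0.0571 in duplicate 2 alone (0.59) and without duplicate 1 of PAC donor 2 (0.70). The donor test was not run without both duplicate 1 cultures of PAC.

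After 4-HT the levels overlapped. Trp53 averaged 179 ± 28.2 CPM (SD, n = 8) with the allele and 206 ± 18.5 CPM (SD, n = 6) without it, a log2 difference of -0.17 ± 0.082 (SE, edgeR adjusted p = 1.00), and 5 of the 8 samples with the allele lay below all 6 without it. The difference was -0.21 ± 0.091 without the duplicate 1 cultures of PAC (edgeR adjusted p = 1.00). By construction the fitted difference in the change (0.82) equals that in the 4-HT level (-0.17) minus that in the EtOH level (-0.98). None of the 10 genes passed in this comparison with edgeR, limma-voom or DESeq2, where 0.0444% of all genes passed with edgeR, and 2 had an unadjusted p under 0.05 (Mdm2, -0.19 ± 0.072, and Sesn2, -0.20 ± 0.088), as had 2.42% of all genes. All 10 fitted differences were negative, with a median of -0.18 against 0.00 over all genes tested.

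For the 9 targets, the difference in the 4-HT change did not pass, and none had an unadjusted p under 0.05, against 1.04% of all genes. It was -0.34 ± 0.23 (SE, log2) for Cdkn1a, 0.30 ± 0.41 for Phlda3, 0.18 ± 0.18 for Bax, -0.13 ± 0.13 for Sesn2, -0.27 ± 0.36 for Trp53inp1, 0.08 ± 0.29 for Ccng1, 0.06 ± 0.12 for Aen, 0.03 ± 0.19 for Bbc3 and -0.01 ± 0.10 for Mdm2. The median over the 10 genes was 0.04, against -0.01 over all genes tested. These errors do not exclude differences of the order of the estimates themselves, and the signs of Mdm2, Aen, Ccng1 and Bbc3 changed under one or more alternatives.

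**Figure D4:**
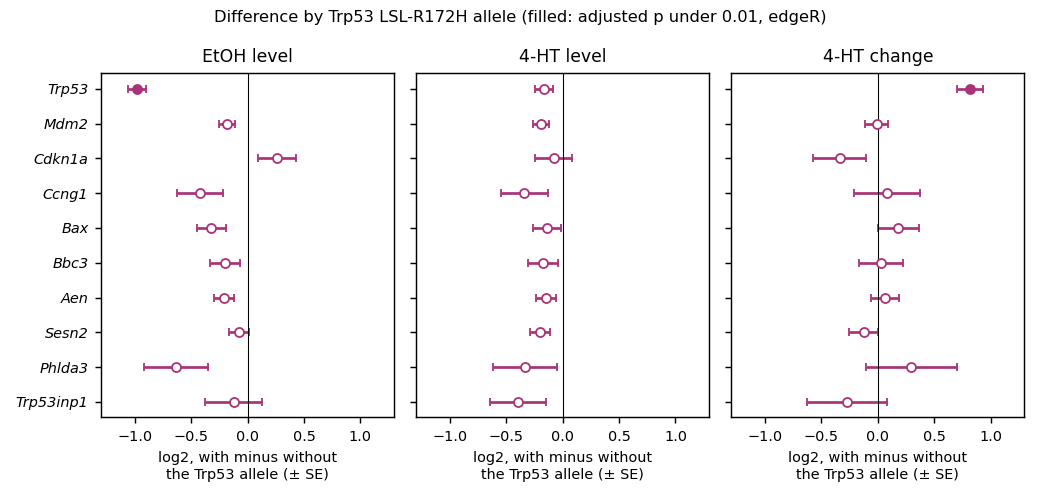
Log2 difference with minus without the Trp53 LSL-R172H allele (horizontal axis, ± SE) in the EtOH level (left), the 4-HT level (middle) and the 4-HT change (right) for the 10 genes, with filled points where the edgeR adjusted p is under 0.01. Only Trp53 is filled, at -0.98 in EtOH and 0.82 in the change, while its 4-HT level differs by -0.17.

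With respect to the Braf allele, the 4-HT change of Mdm2 was larger with that allele (BAC, BPAC) than without it (AC, PAC), by 0.32 ± 0.10 (SE, log2), which did not pass (edgeR adjusted p = 0.0394) but did with the culture as a block (0.33, edgeR adjusted p = 0.008), where 14% of all genes passed. With the same block but without the duplicate 1 cultures of PAC it did not (0.25, edgeR adjusted p = 0.0376), and Aen did (0.38, edgeR adjusted p = 0.00619), where 13.6% of all genes passed. Within cultures it was 0.44 to 0.73 in the 8 with the Braf allele and 0.00 to 0.35 in the 6 without it, and 4.9% of all genes were likewise higher in each of the 8. In the fit without a block no member passed, also not with limma-voom or DESeq2, where 6.61% of all genes did with edgeR. The others nearest to it were Aen (0.30 ± 0.12, edgeR adjusted p = 0.1) and Trp53 (0.28 ± 0.12, edgeR adjusted p = 0.113), these 3 having an unadjusted p under 0.05, as had 28.5% of all genes.

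The duplicates, described by the study as distinct passages, differed for some targets irrespective of genotype. Trp53inp1 was higher in duplicate 2 in 7 of 7 donors, by 0.69 ± 0.30 (SD, log2) in EtOH and 0.83 ± 0.31 in 4-HT. Ccng1 was so by 0.53 ± 0.27 and 0.53 ± 0.38. Among all genes 11.1% were higher in duplicate 2 of every donor in EtOH and 12.9% in 4-HT. Phlda3 was higher in duplicate 2 of all 7 donors in EtOH only (0.57 ± 0.50), and Bbc3 lower (-0.39 ± 0.27), the latter against 11.9% of all genes. Trp53 in 4-HT was lower in duplicate 2 of all 7 donors (-0.20 ± 0.16), against 15.5% of all genes. The 4-HT counts include the duplicate 1 libraries of PAC. In the 5 donors of the other genotypes the 4-HT difference was 0.80 ± 0.35 for Trp53inp1, 0.46 ± 0.39 for Ccng1 and -0.20 ± 0.19 for Trp53. The passage is balanced over genotypes and treatments.

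Across all 28 samples, the genes whose log2 level was most like that of Trp53 were Neurog3 (Pearson r = 0.92), Cenpn (r = 0.92) and Paics (r = 0.92). Among the targets Aen came nearest (r = 0.91), followed by Bax (r = 0.85) and Phlda3 (r = 0.84), while Cdkn1a ran opposite (r = -0.69). The genes most like Cdkn1a were Cda (r = 0.96), Higd1a (r = 0.96) and Elovl1 (r = 0.95). These values describe samples that share treatment, donors and passage.

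The wider pathway was described with lists of known genes, with edgeR and TMM scaling unless stated. With library size alone a larger share of the calls over all genes went upward in each genotype, as given above. The split into rises and falls in the lists is to be read with that. Of 40 other p53 targets, all measured, 1 rose and 2 fell (AC), 6 rose and 6 fell (PAC), 9 rose and 6 fell (BAC), and 10 rose and 10 fell (BPAC). That is 3, 12, 15 and 20 of 40 genes, near the 7.25%, 23.4%, 41.9% and 45.0% of all genes that passed. The median change was 0.17, 0.07, 0.12 and 0.18. With the culture as a block the calls were 8, 22, 24 and 25, where 16.4%, 34.9%, 51.9% and 54.4% of all genes passed. Without the duplicate 1 cultures of PAC no gene of the list passed in PAC, where 0.355% of all genes did. The largest falls included Fas, the death receptor, with -1.47 ± 0.23 (PAC; SE, log2), -1.99 ± 0.23 (BAC) and -2.30 ± 0.24 (BPAC), and Sesn1, a paralogue of Sesn2, with -1.03 ± 0.24 in AC and -0.84 ± 0.17 in PAC. Others were Perp in AC (-0.57 ± 0.13), Gadd45a in PAC (-0.74 ± 0.21), Steap3 in BAC (-1.03 ± 0.18) and BPAC (-0.93 ± 0.18), Dcxr in BAC (-0.89 ± 0.095) and Pmaip1, the NOXA gene, in BPAC (-0.91 ± 0.22).

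Among the largest rises were Gls2, a mitochondrial glutaminase, with 1.37 ± 0.34 (PAC), 1.77 ± 0.34 (BAC) and 2.01 ± 0.34 (BPAC), and Gdf15, a secreted stress cytokine, with 1.49 ± 0.23 in BAC and 1.79 ± 0.23 in BPAC. Def6 rose more than both in BAC (1.87 ± 0.40) and BPAC (2.09 ± 0.41). In PAC Ptpn14 rose by 1.35 ± 0.33 and Plk2 by 1.02 ± 0.15, and in AC Pidd1 rose by 0.92 ± 0.23. With respect to the Trp53 allele none of the 40 passed, in the EtOH level, the 4-HT level or the 4-HT change, and none did with limma-voom or DESeq2. An unadjusted p under 0.05 was reached by 5, 5 and 0 of the 40, and by 4.96%, 2.42% and 1.04% of all genes. With respect to the Braf allele the change of Dcxr was lower (-0.63 ± 0.11, edgeR adjusted p = 0.000329), the only 1 of the 40 with edgeR, against 3 with DESeq2 and 4 with the culture as a block, where 6.61%, 10.7% and 14% of all genes passed.

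Of 16 regulators of p53, 14 were measured. None passed in AC with edgeR or limma-voom, and 1 did with DESeq2, where 11.7% of all genes passed. An unadjusted p under 0.05 was reached by 4 of the 14 in AC with edgeR, and by 30.8% of all genes. In PAC 1 rose and 2 fell, and in BAC and BPAC 3 rose and 2 fell, shares of the 14 below the 23.4%, 41.9% and 45.0% of all genes that passed. Chek1, the replication checkpoint kinase, rose by 0.85 ± 0.14 in PAC (SE, log2), 0.81 ± 0.14 in BAC and 1.18 ± 0.14 in BPAC. Chek2 rose by 0.40 ± 0.12 in BAC and 0.75 ± 0.12 in BPAC, and Ppm1d, the WIP1 phosphatase that switches p53 off, by 0.49 ± 0.12 and 0.46 ± 0.12. Hipk2, a kinase that activates p53, fell in BAC (-0.87 ± 0.11) and BPAC (-1.13 ± 0.11), and its change was lower with the Braf allele (-0.82 ± 0.12, edgeR adjusted p = 9.24e-05). Cop1 (-0.23 ± 0.068 in PAC and in BAC), Rchy1 (-0.34 ± 0.098 in PAC) and Crebbp (-0.33 ± 0.099 in BPAC) changed less. Without the duplicate 1 cultures of PAC no regulator passed in PAC. None of the 14 passed with respect to the Trp53 allele in any of the 3 comparisons, by edgeR, limma-voom or DESeq2, and none had an unadjusted p under 0.05. Between BPAC and BAC in EtOH alone 3 of the 14 had such a p, as had 4.99% of all genes, and none passed. Hipk2 differed by 0.34 ± 0.11 (SE, log2), Chek2 by -0.30 ± 0.12 and Cdkn2a by 1.65 ± 0.75. Between PAC and AC in EtOH these 3 differed by -0.05 ± 0.13, 0.07 ± 0.15 and -0.95 ± 0.87 (same order). Cdkn2a encodes the MDM2 inhibitor ARF among other products, which gene counts do not separate.

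Of 12 mitotic and cell cycle genes that p53 represses through p21, 1 (AC), 8 (PAC), 10 (BAC) and 11 (BPAC) rose, and none fell. Their median change was 0.47, 0.47, 0.86 and 1.00. Of all genes, 3.0%, 11.2%, 20.3% and 22.0% passed upward. With the culture as a block 7, 11, 12 and 12 of the 12 rose, where 16.4%, 34.9%, 51.9% and 54.4% of all genes passed in either direction. Without the duplicate 1 cultures of PAC none of them passed in PAC, where the calls fell to 0.355% over all genes. Ccnb1, cyclin B1, rose by 0.61 ± 0.14 (AC), 0.47 ± 0.096 (PAC), 1.12 ± 0.097 (BAC) and 1.28 ± 0.097 (BPAC; SE, log2), and was higher with 4-HT in 14 of 14 cultures. The proliferation marker Mki67 was also higher in 14 of 14 cultures and passed in BPAC (0.45 ± 0.14, edgeR adjusted p = 0.00883), with 0.23 ± 0.20 in AC, 0.27 ± 0.14 in PAC and 0.43 ± 0.14 in BAC. The change was larger with the Braf allele for 4 of the 12 with edgeR, against 6 with DESeq2 and 8 with the culture as a block, where 6.61%, 10.7% and 14% of all genes passed in either direction. It did not pass with respect to the Trp53 allele for any of them, with no unadjusted p under 0.05. Over the same step the summed epithelial markers went from a median of 16613 CPM in EtOH to 12701 CPM in 4-HT samples, and their part in the changes above was not tested. The markers did not all change alike. In AC and in PAC 6 of the 7 had a lower and 1 a higher fitted level. Krt20 changed by -1.79, -1.84, -1.74 and -2.14 (AC, PAC, BAC, BPAC; log2). Krt18 changed by 0.27, 0.42, 0.52 and 0.50 (same order), without passing.

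**Figure D5:**
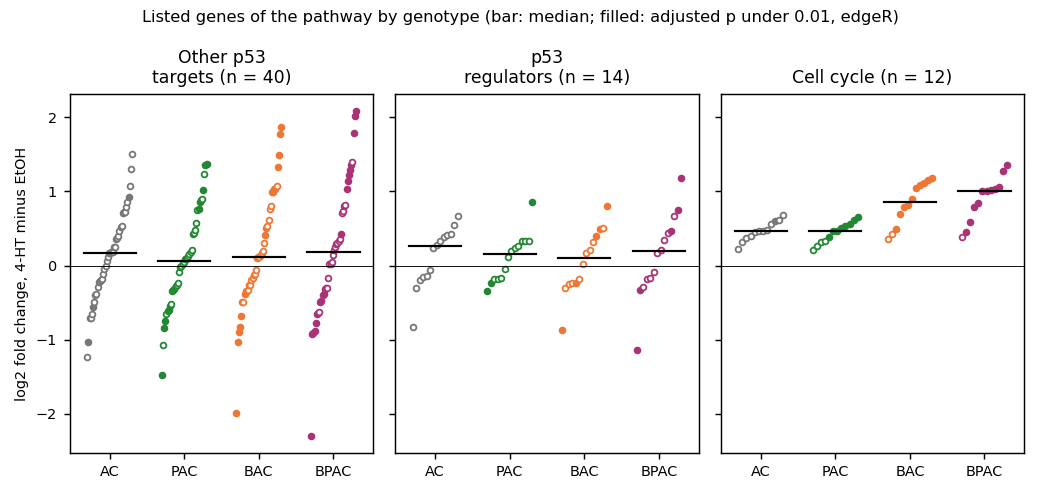
Fitted log2 fold change from EtOH to 4-HT (vertical axis) of each measured gene of 3 lists, other p53 targets (n = 40), p53 regulators (n = 14) and cell cycle genes (n = 12), in AC, PAC, BAC and BPAC, with bars at the list median and filled points where the edgeR adjusted p is under 0.01. Other targets lie on both sides of 0 in each genotype, with medians of 0.07 to 0.18, whereas all 12 cell cycle genes lie above 0, with medians of 0.47 to 1.00.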

How the data were processed

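RNA from mouse colon organoids was sequenced in bulk. Per the labels, the authors trimmed reads with Trimmomatic 0.39 and aligned them to GRCm38 with STAR 2.5.2b. The counting tool and whether it used strand are not given in the sources used here. The deposited values are raw counts per Ensembl gene for 13519 genes and 28 samples, without normalisation. Every gene in the table reached at least 1 CPM in 2 samples, so genes below that were not analysed here. 13479 identifiers matched a symbol.

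Samples were grouped by genotype and treatment from their labels. The 10 genes, the other gene lists and the tests were chosen with earlier results of these data known. Counts were tested with edgeR 4.0.16 (R 4.3.3, TMM, quasi-likelihood, 8 groups, no further filter), with Benjamini-Hochberg adjustment over all 13519 genes and a threshold of 0.01. Log2 CPM used a prior count of 2. Donor means of Trp53 were compared with an exact permutation test (SciPy 1.17.1). p-values over cultures measure the spread between cultures, which share donors. Named genes were all 10 members, up to 3 rises and 3 falls per comparison in the lists of other targets and regulators, Mki67 and Ccnb1, and the 3 genes most correlated with Trp53 and Cdkn1a.

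EtOH and 4-HT samples of a culture (same donor and duplicate number) deviated together from their group means (mean r = 0.42, lowest 0.25, 12 cultures of 3 genotypes), so a fit with the culture as a block was an alternative. The 4-HT label of BAC donor 1 without a duplicate number was read as duplicate 1. For the EtOH and 4-HT levels a fit with the duplicate number as a block was a further alternative. Other alternatives were limma-voom (limma 3.58.1), DESeq2 1.42.0, its size factors, library size alone, a count filter, summed donors, a threshold of 0.05, only the samples compared, each duplicate alone, no duplicate 1 cultures of PAC, and each culture or donor left out. The culture block without the duplicate 1 cultures of PAC was added after seeing the data. The model fits were tested on simulated data.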

Additional observations from a re-analysis of the deposited data

Results flagged for a closer look

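Each group of 4 samples or 4 cultures was searched for one that stood far from the other 3, by Dixon's criterion at the 95% level. Of 90 groups, 4 had such a sample, and chance flags about 1 in 20 groups. Cdkn1a was high in EtOH in duplicate 1 of PAC donor 2 (772 CPM, the other 3 at 346 to 417 CPM). It was high in 4-HT in duplicate 2 of BPAC donor 1 (471 CPM, the others at 276 to 309 CPM). Phlda3 was high in 4-HT in duplicate 2 of PAC donor 2 (48.0 CPM, the others at 41.3 to 41.7 CPM). Of these others, 2 are the duplicate 1 libraries of PAC that do not clearly represent separate donors, so the narrow spread rests in part on them. Trp53inp1 was high in EtOH in duplicate 2 of PAC donor 2 (37.4 CPM, the others at 21.2 to 23.8 CPM).

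A difference between groups that was itself tested is the larger 4-HT change of Trp53 with the LSL-R172H allele (log2 difference 0.82, edgeR adjusted p = 0.00367), whose call was lost in 12 of 20 fits that left out a culture or donor.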

How the results depend on the processing

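Of 2664 alternative values for single genes, 2470 kept their direction and side of the threshold, 101 lost a call, 30 gained one and 63 changed sign, none of them called. With the culture as a replicate block, Mdm2 became the 1 gene called for the Braf allele, Bax (PAC), Cdkn1a (BAC) and Ccng1 (BPAC) were also called, and no other call changed. With the block but without the duplicate 1 cultures of PAC, Cdkn1a was also called in AC. The causes of the changes below were not tested, beyond the smaller number of samples in the settings that drop some.

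For the Braf allele Mdm2 was the 1 gene called also at a threshold of 0.05, whereas with the block without the duplicate 1 cultures of PAC the 1 gene called was Aen and not Mdm2. With counts summed per donor, Phlda3 was not called in PAC, BAC or BPAC, nor Bax in BAC or BPAC, nor Aen in AC. For the 4-HT change in AC, 1 was called with counts summed per donor or in duplicate 1 alone (5% and 6.61% of all genes), and 0 with AC samples alone or in duplicate 2 alone (1.87% and 0.0962%). For the Trp53 allele and the 4-HT change, 0 were called with summed counts, in either duplicate alone, and without the duplicate 1 cultures of PAC, with or without the block. In BPAC 3 were called with its samples alone (33.4% of all genes) and in duplicate 2 alone (22.2%), in BAC 3 (21%) and in PAC 1 (0.0518%) in duplicate 2 alone, and in PAC 1 without its duplicate 1 cultures (0.355%). For the EtOH level 0 were called in duplicate 2 alone (0.0074%). The donor difference in the Trp53 change was 0.59 in duplicate 2 alone. Leaving out a culture or donor gave 1 to 3 calls for the EtOH level (0.037% to 0.0962% of all genes), 0 to 2 in AC (0.0666% to 10.1%), 2 to 5 in PAC (2.49% to 26.5%), 3 to 7 in BAC (20% to 44.2%), 3 to 7 in BPAC (30.2% to 45.7%), 0 to 1 for the Trp53 allele and the change (0% to 0.0148%), and a donor difference of 0.70 to 0.84 in the change.

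Signs changed as follows, in log2. With library size alone, Trp53inp1 was 0.14 (PAC), 0.14 (BAC) and 0.086 (BPAC), and Mdm2 0.014 for the Trp53 allele and the change. With summed counts Bbc3 was 0.027 for the Braf allele. In duplicate 1 alone Ccng1 was -0.17 and Bbc3 -0.051 in AC, Aen 0.0079 for the 4-HT level and Trp53inp1 0.10 for the Braf allele. In duplicate 2 alone Trp53inp1 was 0.073 in PAC; for the Trp53 allele and the change Mdm2 was 0.035, Ccng1 -0.053, Bbc3 -0.072 and Aen -0.046; for the Braf allele Cdkn1a was -0.0087, Ccng1 -0.0072 and Bbc3 0.013. Without the duplicate 1 cultures of PAC, Trp53inp1 was 0.073 in PAC (0.096 with the block), Mdm2 0.067 (0.075) and Aen -0.016 (-0.021) for the Trp53 allele and the change, and Cdkn1a -0.033 (-0.025) for the Braf allele. Leaving out a culture or donor, Trp53inp1 ranged from -0.28 to 0.074 (EtOH level), -0.21 to 0.025 (PAC) and -0.11 to 0.048 (BAC), and Ccng1 from -0.15 to 0.48 (AC) and -0.080 to 0.29 (PAC). Bbc3 ranged from -0.034 to 0.27 (AC), and for the Trp53 allele and the change Ccng1 from -0.033 to 0.28, Bbc3 from -0.055 to 0.10 and Mdm2 from -0.065 to 0.060. For the Braf allele Cdkn1a ranged from -0.081 to 0.25, Bbc3 from -0.11 to 0.049 and Phlda3 from -0.10 to 0.60.

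AC rests on 1 donor and the allele comparisons on 7. Where a left-out sample leaves 1 in a group, that sample is assumed to vary like the others.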
